A study of Homo sapiens with 12 samples.

Results

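The genes described here carry out homologous recombination and the Fanconi anaemia repair of DNA crosslinks: 34 of the 59172 features in the expression table, taken by gene name from a list of members, and all 34 passed the read filter that 18062 features passed. Values came from RNA sequencing of HCT-116, a human colorectal carcinoma line deficient in mismatch repair, in 4 groups of 3 libraries. SHP2-silenced cells received CPT-11 for 24 h, wild-type cells received lovastatin for 4 h and then CPT-11 for 24 h, wild-type cells received CPT-11 alone for 24 h, and wild-type cells were left untreated. CPT-11 (irinotecan) is a prodrug of a topoisomerase I poison that breaks replicating DNA, lovastatin blocks the HMG-CoA reductase step of cholesterol synthesis, and SHP2 is the tyrosine phosphatase encoded by PTPN11. The groups are called SHP2-silenced, lovastatin, CPT-11 and untreated cells below, and the first 3 of these all received CPT-11. For the SHP2-silenced libraries the treatment label also names lovastatin, whereas the title and the treatment protocol do not. Doses, a lovastatin group without CPT-11, a SHP2-silenced group without CPT-11 and a control hairpin were not analysed here. The labels do not name separate cultures. The p-values therefore rest on the spread between these libraries, which may be technical.

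Homologous recombination repairs a broken chromosome by copying the sister chromatid: nucleases trim the ends, BRCA1 and BRCA2 with their partners prepare the single strands, further factors and remodellers help strand exchange, and resolvases separate the joined molecules. The Fanconi core complex adds ubiquitin to FANCD2 and FANCI at stalled forks and crosslinks, which directs incision and hands the break to recombination. Both pathways act at forks that collide with trapped topoisomerase I, and many of the genes are transcribed mainly in S phase.

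Libraries held 14447847 to 16224271 assigned reads, and values are the deposited FPKM, which are reads per kilobase of gene scaled between libraries. PTPN11 was at 6.01, 6.54 and 7.15 FPKM in SHP2-silenced cells, 43.2 to 45.4 in lovastatin cells, 43.9 to 50.5 in CPT-11 cells and 53.3 to 55.4 in untreated cells. HMGCS1, a sterol-responsive gene of the same synthesis pathway, was at 24.9 to 25.8 FPKM in SHP2-silenced cells, against 101 to 105 in lovastatin cells. It was at 25.2 to 31.2 FPKM in CPT-11 cells and 28.1 to 31.0 in untreated cells. Of 9 epithelial markers, KRT8, KRT18, KRT19 and EPCAM were high (EPCAM 62.0 to 87.8 FPKM), KRT20 was at 0.524 to 1.63 and the villus marker VIL1 did not pass 0.144 FPKM. The 11 markers of other cells summed to 6.27 to 7.45 FPKM in SHP2-silenced cells, 5.81 to 6.36 in lovastatin cells, 4.16 to 6.31 in CPT-11 cells and 3.51 to 4.35 in untreated cells, most of it COL1A1, while CD3E was at 0 in 10 libraries and DCN in 7. In bulk libraries fewer cells of a type and less RNA per cell cannot be told apart.

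The third CPT-11 library stood apart from the other two, and counts of members called in comparisons with CPT-11 cells are given with and without it. Over all tested genes its Pearson's r with CPT-11 replicates 1 and 2 was 0.9815 and 0.9771, and theirs with each other was 0.9922. With lovastatin libraries its r was 0.9917 to 0.9930, and with SHP2-silenced libraries 0.9898 to 0.9906. The third library's values leaned towards GC-rich genes, with a slope of 0.079 log2 units per 10 points of GC content, against -0.147 and -0.170 in CPT-11 replicates 1 and 2. The same slope was 0.098 to 0.128 in SHP2-silenced libraries, 0.012 to 0.071 in lovastatin libraries and -0.136 to -0.012 in untreated libraries. RN7SL2, a non-coding RNA of the signal recognition particle, was at 400.2 FPKM in replicate 3, against 37.2 and 17.6 in replicates 1 and 2. It also moved with the groups, at 1065 to 1469 FPKM in SHP2-silenced, 227 to 346 in lovastatin and 71.1 to 155 in untreated libraries, and its part in the members' changes was not tested. Among the members, replicate 3 was below both other CPT-11 libraries in 24, above both in 9 and between them in 1, RAD51D. The 9 were RAD50, XRCC3, RAD54L, FANCA, FANCC, FANCE, FANCG, MUS81 and SLX4. Over the 34 members, Spearman's rho between GC content and the difference of replicate 3 from the mean of the other two was 0.79, a description across genes of 1 library.

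The members were expressed at moderate levels, with a median of 6.54 FPKM over the 12 libraries against 3.69 for all tested genes. FANCI was the highest at 20.0 FPKM and RAD50 the lowest at 0.778 FPKM. The fewest reads behind a member were 83 to 147 per library for FANCF, 90 to 132 for RAD54B and 96 to 156 for RAD50, so counting error is largest for these rows. The members' transcripts were poorer in GC than those of tested genes (median 42.1% against 48.8%) and their genes longer (median span 67.4 kb against 23.7 kb). Several rows share exons with another annotated gene, and reads from shared bases cannot be told apart, on opposite strands too, since no source states that counting used strand. The shared part was 79.7% of exonic bases for RAD50 (with TH2LCRR and AC116366.3), 76.7% for XRCC3 (with KLC1), 59.1% for RAD54B (with FSBP), 25.1% for RAD54L (with LRRC41) and 23.6% for FANCA (with ZNF276). It was 19.7% for FANCL (mainly VRK2 and AC007250.1), 16.4% for EME1 (with LRRC59), 14.1% for MUS81 (with EFEMP2 and CFL1) and 11.3% for FANCF (with GAS2). The other members shared at most 9.45%, in RAD51D.

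**Figure D1:**
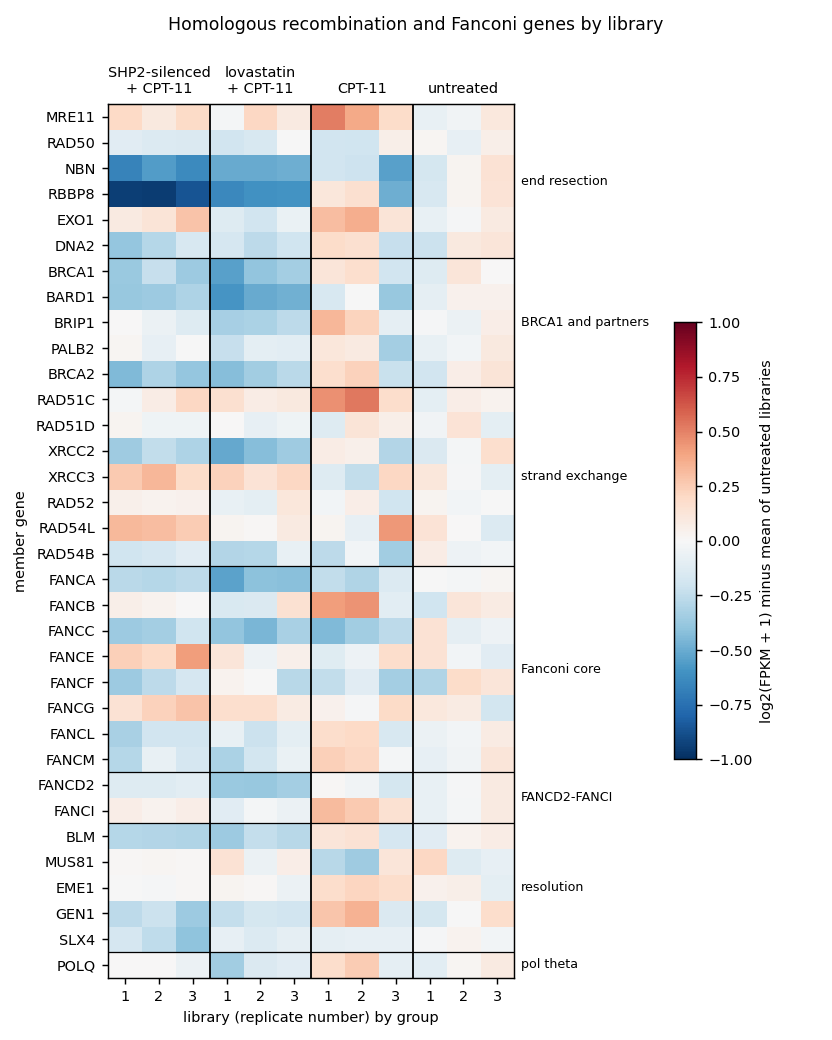
Each row is a member gene, grouped by role, and each column a library, with SHP2-silenced, lovastatin, CPT-11 and untreated cells from left to right; colour gives log2(FPKM + 1) minus the mean of the untreated libraries, on a scale from -1 to 1. RBBP8 and NBN are darkest blue in SHP2-silenced cells, and CPT-11 replicate 3 is less red or more blue than replicates 1 and 2 in the 24 members where it was the lowest of the group.

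Promoter windows, 250 bases before to 50 after the RefSeq start, were available for 30 of the 34 members (RefSeq, GRCh38.p14; NBN, FANCI, RAD54B and DNA2 had no entry). The 4 motifs of cell-cycle promoters were searched for on both strands, and none of them overlapped another in the windows printed. The 30 members had 39 windows. The E2F-type word TTTCCCGC was in 3 of them, for FANCC, FANCD2 and XRCC2, and in 1.63% of all 35116 windows. The other E2F-type word, TTTGGCGC, was in none of the members' windows and in 0.652% of all windows. The CHR-type word TTTGAA was in 3 of the 39 windows (BRIP1, FANCC and POLQ) and 15.2% of all windows. The CCAAT box was in 13 of the 39, for 12 members, and in 34.6% of all windows. A match of letters is a description, not a binding site. All 3 members with TTTCCCGC were lower in lovastatin than in untreated cells, beside 14.3% of all tested genes. FANCC and XRCC2 were also lower in SHP2-silenced and FANCC in CPT-11 than in untreated cells. RBBP8, BRCA1, BARD1, BRIP1, FANCA and BLM, also lower in lovastatin than in untreated cells, lacked the word, and NBN had no window. A link between the word and these changes was not tested. FANCD2 and XRCC2 are shown as examples of windows with the word. RBBP8 is shown as the member with the largest change and RAD51C as the member with the largest difference between CPT-11 and untreated cells. Both lack these words in the window. Capitals mark GCGGGAAA, the reverse complement of TTTCCCGC, which begins at base 249 of the FANCD2 window (chr3:10026187-10026486, plus strand) and base 272 of the XRCC2 window (chr7:152676092-152676391, minus strand). The RBBP8 window is chr18:22933078-22933377 and the RAD51C window chr17:58692323-58692622, both on the plus strand, and all are written 5′ to 3′ in the direction of the gene.
FANCD2: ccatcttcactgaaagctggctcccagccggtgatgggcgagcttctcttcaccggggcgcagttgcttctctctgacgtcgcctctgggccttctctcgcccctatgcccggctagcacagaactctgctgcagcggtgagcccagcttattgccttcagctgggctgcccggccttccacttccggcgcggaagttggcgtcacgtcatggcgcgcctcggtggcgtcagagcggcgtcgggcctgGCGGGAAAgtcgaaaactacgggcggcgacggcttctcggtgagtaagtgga
XRCC2: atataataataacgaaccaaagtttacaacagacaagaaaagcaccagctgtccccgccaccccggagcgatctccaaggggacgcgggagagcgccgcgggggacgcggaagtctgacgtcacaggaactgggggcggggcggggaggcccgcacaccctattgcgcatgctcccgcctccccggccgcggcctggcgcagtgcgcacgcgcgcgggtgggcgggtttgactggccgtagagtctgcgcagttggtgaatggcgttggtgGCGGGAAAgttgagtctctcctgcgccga
RBBP8: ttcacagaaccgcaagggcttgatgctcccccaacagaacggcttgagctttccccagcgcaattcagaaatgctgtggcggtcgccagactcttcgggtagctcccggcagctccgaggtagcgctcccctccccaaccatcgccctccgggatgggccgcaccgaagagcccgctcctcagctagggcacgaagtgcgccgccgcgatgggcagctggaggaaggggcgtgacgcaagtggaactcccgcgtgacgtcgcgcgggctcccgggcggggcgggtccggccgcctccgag
RAD51C: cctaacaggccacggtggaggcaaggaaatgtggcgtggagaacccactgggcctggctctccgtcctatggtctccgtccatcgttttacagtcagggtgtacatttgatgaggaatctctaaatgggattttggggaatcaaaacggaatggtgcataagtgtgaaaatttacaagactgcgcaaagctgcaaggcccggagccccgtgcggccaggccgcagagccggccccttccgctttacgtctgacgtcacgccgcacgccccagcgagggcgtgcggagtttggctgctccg

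After CPT-11 alone, 7 of the 34 members were called against the untreated group, some up and some down. These calls depended on which libraries were kept. MRE11, EXO1, RAD51C, FANCI and EME1 were higher in CPT-11 than in untreated cells, and FANCA and FANCC were lower, by limma with Benjamini-Hochberg adjustment over all tested genes at an adjusted p under 0.05. These 5 and 2 of 34 members (14.7% and 5.88%) stand beside 8.85% of all tested genes higher and 7.70% lower. The members' median log2 change was 0.03, against -0.01 over all tested genes. NBN differed by -0.31 and missed the threshold (adjusted p = 0.056). Without CPT-11 replicate 3, 8 members were higher, the same 5 with BRIP1, FANCB and GEN1, and 3 lower, FANCA, FANCC and MUS81, beside 11.6% and 12.9% of all genes. Their changes without that library were 0.49 for RAD51C, 0.45 for MRE11, 0.34 for EXO1, 0.29 for FANCI, 0.20 for EME1, -0.28 for FANCA and -0.39 for FANCC. Without CPT-11 replicate 1 the counts were 0 and 0, and without replicate 2 they were 1 and 2. Leaving out untreated replicate 1 left 0 higher and 2 lower, replicate 2 left 1 and 1, and replicate 3 left 4 and 1. In the runs that kept CPT-11 replicate 3, 1111 to 1347 of all tested genes were higher and 820 to 1161 lower. With all libraries these were 1598 and 1391.

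In lovastatin cells RBBP8, NBN, BRCA1, BARD1, BRIP1, XRCC2, FANCA, FANCC, FANCD2 and BLM were lower than in untreated cells. These 10 of 34 members stood beside 14.3% of all tested genes lower, with a median change of -0.14 over the members and 0.00 over all genes, and 7 members had a change above 0. No member was higher (0 by limma, 0 at an unadjusted p under 0.05 and 0 by voom), beside 14.7% of all genes. Leaving out any 1 library left 8 to 10 members lower, beside 1810 to 2372 of all tested genes, against 2580 with all libraries.

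In SHP2-silenced cells RBBP8, NBN, BRCA1, BARD1, BRCA2, XRCC2, FANCA, FANCC, BLM and SLX4 were lower than in untreated cells and FANCE was higher. These were 10 and 1 of 34 members, beside 19.5% and 18.3% of all tested genes. The members' median change was -0.13, against 0.00 over all genes. The comparisons with untreated cells share the same 3 untreated libraries. Leaving out 1 SHP2-silenced library left 5, 6 and 5 members lower for replicates 1, 2 and 3, and leaving out untreated replicate 2 or 3 left 6. In these runs 2701 to 2986 of all tested genes were lower, against 3520 with all libraries. FANCE kept its call without SHP2-silenced replicate 2 or untreated replicate 1 and lost it without any other library of these groups.

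Against CPT-11 cells, SHP2-silenced cells had lower RBBP8, NBN, BRCA1, BRCA2, RAD51C, FANCL, FANCM, FANCI, BLM, EME1 and GEN1. These 11 of 34 members lower, with a median of -0.18, stood beside 12% of all tested genes lower with a median of 0.00. None was higher (0 by limma, 2 at an unadjusted p under 0.05 and 2 by voom), beside 10% of all genes. Without CPT-11 replicate 3 the count lower was 18, the same 11 with BARD1, BRIP1, DNA2, FANCB, MRE11, POLQ and XRCC2, and 4 were higher: FANCE, MUS81, RAD54L and XRCC3. The changes of the 11 then lay between -1.05 ± 0.07 for RBBP8 and -0.20 ± 0.06 for EME1. All-gene shares without that library were 21.9% lower and 21.6% higher. Of these 18 and 4 calls, 6 and 1 stayed after the GC and length correction given below. Leaving out any other library of these groups took away most of the 11 calls, and calls over all tested genes fell too. Without CPT-11 replicate 1 or 2, 1 member was lower, beside 626 and 700 of the 18062 tested genes. Without SHP2-silenced replicate 1, 2 and 3, 1, 1 and 2 members were lower, beside 735, 879 and 1212 genes. With all libraries 2167 genes were lower.

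Between lovastatin and CPT-11 cells no member passed the threshold when all libraries were used. The counts were 0 higher and 0 lower by limma, 1 and 17 at an unadjusted p under 0.05, and 0 and 5 by voom, and 0.393% and 0.0720% of all tested genes were called higher and lower. The members' median was -0.24, with 28 of 34 below 0, against 0.00 over all tested genes. The differences furthest from 0 were those of RBBP8 (-0.54, adjusted p = 0.135), BRCA1 (-0.46, 0.094), BRIP1 (-0.46, 0.072), BRCA2 (-0.41, 0.163) and EXO1 (-0.40, 0.055). Without CPT-11 replicate 3, 22 members were lower and 2 higher (MUS81 and XRCC3), beside 14.3% and 15.9% of all genes, and the median was -0.33. All 5 members of the BRCA1 group, both FANCD2 and FANCI, and 5 of 6 end-resection genes were among the 22. The comparison therefore turned on that library. Of the 22 lower and 2 higher calls without it, 14 and 0 stayed after the GC and length correction given below. Both comparisons with CPT-11 cells share its 3 libraries.

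**Figure D2:**
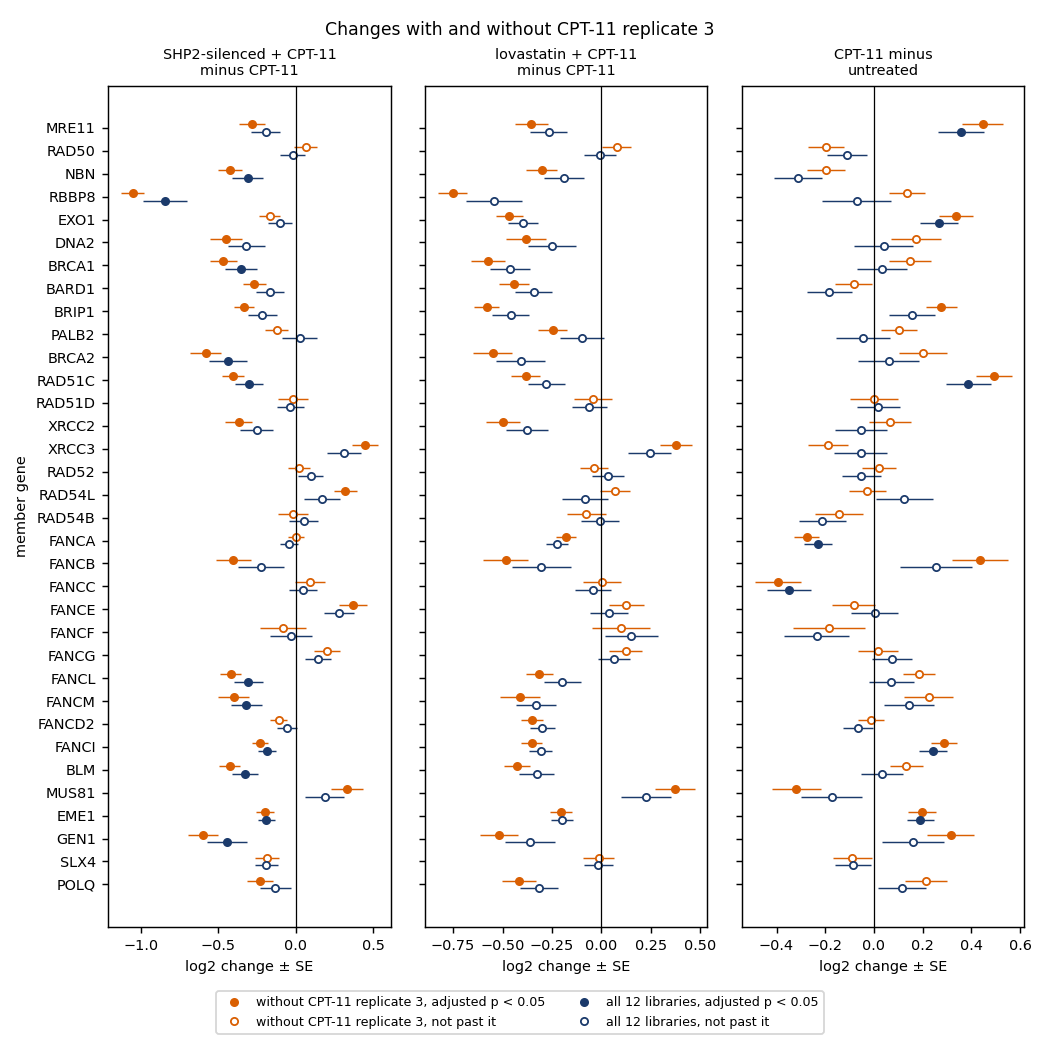
Log2 change of log2(FPKM + 1) with its standard error for each member, for SHP2-silenced minus CPT-11, lovastatin minus CPT-11 and CPT-11 minus untreated cells; orange points leave out CPT-11 replicate 3, blue points use all 12 libraries, and filled points have an adjusted p under 0.05. In the lovastatin panel no blue point is filled, against 24 orange ones.

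SHP2-silenced and lovastatin cells, both given CPT-11, differed at EXO1 and FANCD2, which were higher in SHP2-silenced cells. These 2 of 34 members stood beside 2.58% of all tested genes higher, and no member was lower (0 by limma, 1 at an unadjusted p under 0.05 and 0 by voom) beside 4.26%. The median over members was 0.07. Both calls were lost when any 1 of the 6 libraries was left out (0 members then). In these runs 191 to 270 of all tested genes were higher, against 466 with all libraries. RBBP8 differed by -0.30 (adjusted p = 0.25), RAD54L by 0.25 (0.24), BRIP1 by 0.24 (0.16) and FANCE by 0.24 (0.17), none past the threshold.

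End resection starts with the MRE11, RAD50 and NBN complex and its activator RBBP8, also called CtIP. RBBP8 was at 10.9, 10.8 and 11.5 FPKM in SHP2-silenced cells, 13.6, 13.98 and 14.03 in lovastatin cells, 23.7, 24.4 and 15.3 in CPT-11 cells and 19.4, 22.2 and 24.0 in untreated cells. No SHP2-silenced or lovastatin library reached the lowest CPT-11 or untreated library. The change was -0.92 ± 0.14 (SE) in SHP2-silenced minus untreated cells (adjusted p = 5.5e-04), -0.85 ± 0.14 in SHP2-silenced minus CPT-11 cells (0.0044) and -0.62 ± 0.14 in lovastatin minus untreated cells (0.0078). RBBP8 had the change furthest from 0 among the members in each of these comparisons. CPT-11 minus untreated was -0.07 ± 0.14, with libraries that overlapped.

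NBN, the subunit that recruits the ATM kinase, was at 9.52, 10.3 and 9.76 FPKM in SHP2-silenced cells, 10.8, 10.8 and 10.9 in lovastatin cells, 13.7, 13.5 and 10.5 in CPT-11 cells and 13.8, 16.0 and 17.5 in untreated cells. All treated libraries lay below the lowest untreated one, and CPT-11 replicate 3 sat near the lovastatin libraries. NBN fell by 0.62 ± 0.10 in SHP2-silenced (adjusted p = 7.1e-04) and by 0.50 ± 0.10 in lovastatin cells (0.0036) against untreated cells. Against CPT-11 cells it was lower by -0.31 ± 0.10 in SHP2-silenced cells (0.047).

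MRE11, the nuclease of the complex, was highest in CPT-11 cells, with 6.26, 5.76 and 6.23 FPKM in SHP2-silenced cells, 5.25, 6.28 and 5.72 in lovastatin cells, 7.996, 7.24 and 6.16 in CPT-11 cells and 5.01, 5.17 and 5.81 in untreated cells. Its 3 CPT-11 libraries were above all untreated ones, a change of 0.36 ± 0.09 (adjusted p = 0.024). EXO1, the long-range exonuclease, was also highest there, with 15.3, 15.8 and 17.7 FPKM in SHP2-silenced cells, 13.01, 12.5 and 13.6 in lovastatin cells, 18.0, 18.8 and 15.8 in CPT-11 cells and 13.6, 14.2 and 15.4 in untreated cells. EXO1 was higher by 0.27 ± 0.08 in CPT-11 than in untreated cells (0.036) and by 0.30 ± 0.08 in SHP2-silenced than in lovastatin cells (0.042). DNA2, the nuclease-helicase that acts beside EXO1, and RAD50, the ATPase subunit, passed no threshold with all libraries. Without CPT-11 replicate 3 DNA2 was lower than in CPT-11 cells in SHP2-silenced (-0.45 ± 0.10, 0.0048) and lovastatin cells (-0.38 ± 0.10, 0.018). DNA2 ranged from 5.49 to 8.65 FPKM and RAD50 from 0.642 to 0.971 over the 12 libraries.

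**Figure D3:**
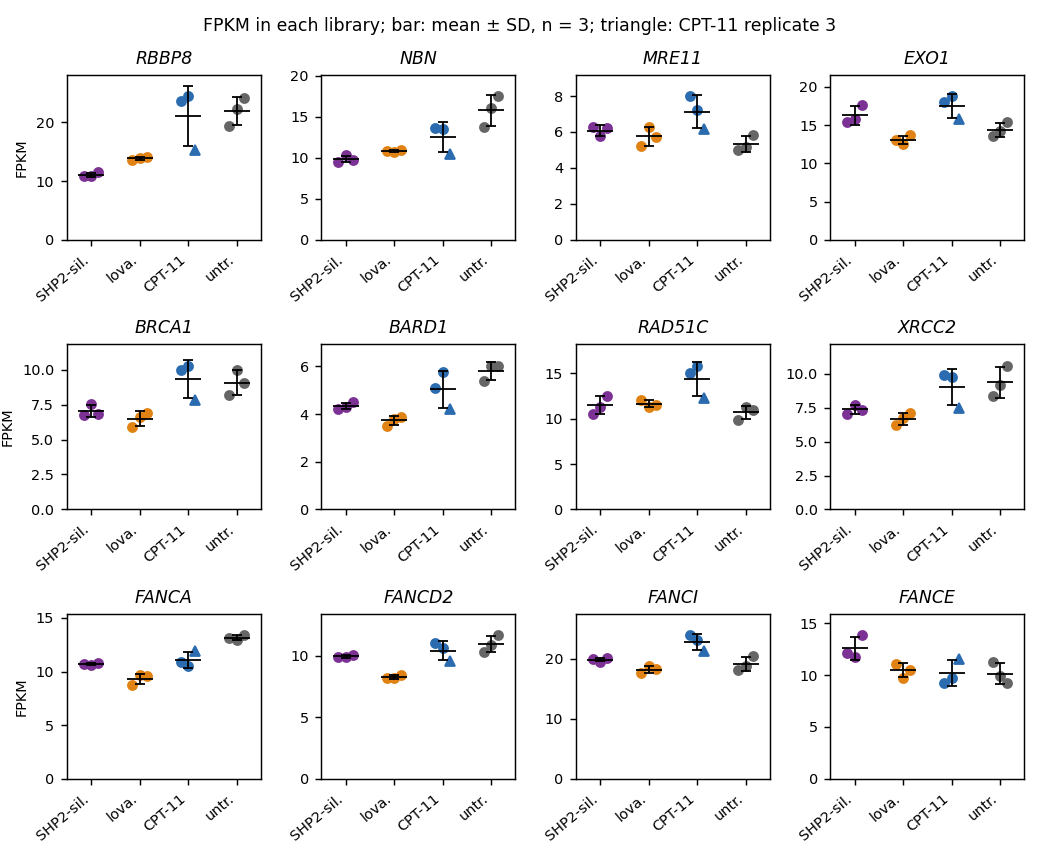
FPKM of 12 members in each library, with SHP2-silenced, lovastatin, CPT-11 and untreated cells from left to right; points are libraries, lines the mean ± SD (n = 3), and the triangle is CPT-11 replicate 3. In the RBBP8 panel the SHP2-silenced and lovastatin libraries lie between 10.8 and 14.03 FPKM, below all CPT-11 and untreated libraries.

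BRCA1 and BARD1 form the ubiquitin ligase that starts the pathway after resection, and PALB2 bridges BRCA1 to BRCA2. BRCA1 was at 6.76, 7.53 and 6.82 FPKM in SHP2-silenced cells, 5.87, 6.63 and 6.92 in lovastatin cells, 9.94, 10.3 and 7.80 in CPT-11 cells and 8.17, 9.94 and 9.08 in untreated cells. Its SHP2-silenced and lovastatin libraries all lay below every CPT-11 and untreated library. BRCA1 fell by 0.43 ± 0.10 in lovastatin (adjusted p = 0.00997) and by 0.32 ± 0.10 in SHP2-silenced cells (0.030) against untreated cells, and by 0.36 ± 0.10 in SHP2-silenced against CPT-11 cells (0.034). BARD1 was at 4.23, 4.30 and 4.50 FPKM in SHP2-silenced cells, 3.51, 3.79 and 3.89 in lovastatin cells, 5.09, 5.78 and 4.22 in CPT-11 cells and 5.39, 6.03 and 6.03 in untreated cells. BARD1 followed BRCA1 against untreated cells, lower by -0.53 ± 0.09 in lovastatin (0.0017) and by -0.35 ± 0.09 in SHP2-silenced cells (0.012).

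BRCA2 was at 3.00, 3.40 and 3.16 FPKM in SHP2-silenced cells, 3.04, 3.28 and 3.51 in lovastatin cells, 5.11, 5.40 and 3.66 in CPT-11 cells and 3.76, 4.68 and 4.96 in untreated cells. SHP2-silenced libraries were below all CPT-11 (-0.44 ± 0.12, adjusted p = 0.030) and all untreated libraries (-0.38 ± 0.12, 0.032), and lovastatin minus untreated missed the threshold (-0.35 ± 0.12, 0.054). BRIP1, a helicase that binds BRCA1, was at 7.73, 7.37 and 6.94 FPKM in SHP2-silenced cells, 5.89, 5.996 and 6.26 in lovastatin cells, 9.93, 9.15 and 7.19 in CPT-11 cells and 7.63, 7.37 and 8.10 in untreated cells. For BRIP1 the lovastatin libraries stood below all others, -0.30 ± 0.09 against untreated cells (0.033), whereas SHP2-silenced and untreated libraries overlapped. PALB2 ranged from 3.69 to 5.44 FPKM, both ends in CPT-11 cells, and passed no threshold with all libraries. Without CPT-11 replicate 3 it was lower in lovastatin than in CPT-11 cells (-0.25 ± 0.07, 0.030).

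In strand exchange, RAD51C, RAD51D, XRCC2 and XRCC3 are paralogs that act in small complexes, and RAD54L, RAD54B and RAD52 remodel or anneal strands. RAD51C was at 10.5, 11.3 and 12.5 FPKM in SHP2-silenced cells, 12.05, 11.3 and 11.5 in lovastatin cells, 15.1, 15.8 and 12.2 in CPT-11 cells and 9.90, 11.3 and 10.97 in untreated cells. Its CPT-11 libraries were above all untreated ones, 0.39 ± 0.09 (adjusted p = 0.015), the largest change of a member in that comparison. It was lower in SHP2-silenced than in CPT-11 cells (-0.30 ± 0.09, 0.040), although these groups overlapped through CPT-11 replicate 3. XRCC2 was at 7.07, 7.72 and 7.35 FPKM in SHP2-silenced cells, 6.25, 6.71 and 7.10 in lovastatin cells, 9.90, 9.75 and 7.47 in CPT-11 cells and 8.37, 9.19 and 10.6 in untreated cells. XRCC2 thus differed from its partner RAD51C: it fell by 0.43 ± 0.11 in lovastatin (0.011) and by 0.31 ± 0.11 in SHP2-silenced cells (0.041) against untreated cells, with no overlap. The other 5, RAD51D, XRCC3, RAD52, RAD54L and RAD54B, passed no threshold with all libraries. XRCC3 was at 4.81, 5.12 and 4.52 FPKM in SHP2-silenced cells, against 3.45, 3.09 and 4.62 in CPT-11 cells, and without CPT-11 replicate 3 it was higher by 0.45 ± 0.08 (0.0016). With the GC and length correction in that setting it lost the call (0.08 ± 0.07, 0.41).

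In the Fanconi core complex, FANCL is the ubiquitin ligase, FANCA, FANCB, FANCC, FANCE, FANCF and FANCG are its scaffold, and FANCM anchors it to DNA. FANCA was at 10.7, 10.6 and 10.8 FPKM in SHP2-silenced cells, 8.80, 9.64 and 9.59 in lovastatin cells, 10.9, 10.5 and 11.9 in CPT-11 cells and 13.1, 12.98 and 13.4 in untreated cells. Every treated library lay below every untreated one, CPT-11 replicate 3 included. The change against untreated cells was -0.27 ± 0.06 in SHP2-silenced (adjusted p = 0.0035), -0.46 ± 0.06 in lovastatin (1.9e-04) and -0.23 ± 0.06 in CPT-11 cells (0.019). FANCC was at 1.89, 1.94 and 2.25 FPKM in SHP2-silenced cells, 1.83, 1.72 and 1.98 in lovastatin cells, 1.74, 1.93 and 2.11 in CPT-11 cells and 3.11, 2.50 and 2.59 in untreated cells. FANCC showed the same gap, -0.30 ± 0.09 in SHP2-silenced (0.021), -0.39 ± 0.09 in lovastatin (0.0074) and -0.35 ± 0.09 in CPT-11 cells (0.021). FANCC is the longest gene of the set, spanning 328 kb.

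FANCE, which contacts FANCD2, was at 12.1, 11.7 and 13.8 FPKM in SHP2-silenced cells, 11.1, 9.74 and 10.5 in lovastatin cells, 9.22, 9.73 and 11.6 in CPT-11 cells and 11.2, 9.91 and 9.24 in untreated cells. SHP2-silenced libraries were above all others, by 0.29 ± 0.10 over untreated cells (adjusted p = 0.037), and the FANCE transcript is GC-rich at 58.0%. FANCL was at 8.40, 9.29 and 9.31 FPKM in SHP2-silenced cells, against 12.3, 12.5 and 9.52 in CPT-11 cells, -0.31 ± 0.09 (0.039). FANCM was at 2.11, 2.60 and 2.37 FPKM in SHP2-silenced cells, against 3.48, 3.38 and 2.74 in CPT-11 cells, -0.32 ± 0.10 (0.047). For both genes CPT-11 replicate 3 lay close to the SHP2-silenced libraries and set the narrow gap. FANCB, FANCF and FANCG passed no threshold with all libraries. FANCB was at 5.38, 5.51 and 3.43 FPKM in CPT-11 cells and 3.15, 4.18 and 4.03 in untreated cells, and without replicate 3 it was higher in CPT-11 cells by 0.43 ± 0.11 (0.019).

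FANCD2 and FANCI form the clamp that the core complex modifies. FANCD2 was at 9.91, 9.92 and 10.1 FPKM in SHP2-silenced cells, 8.23, 8.20 and 8.43 in lovastatin cells, 11.02, 10.7 and 9.60 in CPT-11 cells and 10.3, 10.9 and 11.7 in untreated cells. Its lovastatin libraries were the lowest of all and did not overlap any other group. FANCD2 fell by 0.36 ± 0.06 in lovastatin against untreated cells (adjusted p = 0.0014) and was higher by 0.24 ± 0.06 in SHP2-silenced than in lovastatin cells (0.041). FANCI was at 20.0, 19.6 and 20.1 FPKM in SHP2-silenced cells, 17.6, 18.8 and 18.2 in lovastatin cells, 23.9, 23.1 and 21.3 in CPT-11 cells and 18.1, 18.8 and 20.4 in untreated cells. FANCI, unlike its partner, was higher in CPT-11 than in untreated cells (0.24 ± 0.06, 0.017) and lower in SHP2-silenced than in CPT-11 cells (-0.19 ± 0.06, 0.045).

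Joint molecules are dissolved by BLM, a helicase, or cut by MUS81 with EME1, by GEN1 or by nucleases docked on SLX4. BLM was at 6.13, 6.09 and 6.05 FPKM in SHP2-silenced cells, 5.76, 6.36 and 6.17 in lovastatin cells, 8.46, 8.61 and 6.75 in CPT-11 cells and 7.04, 7.91 and 8.17 in untreated cells. SHP2-silenced and lovastatin libraries overlapped each other and lay below the rest, -0.29 ± 0.09 in each against untreated cells (adjusted p = 0.021 and 0.026) and -0.33 ± 0.09 in SHP2-silenced against CPT-11 cells (0.025). EME1 was at 10.7, 10.7 and 10.9 FPKM in SHP2-silenced cells, 10.97, 10.8 and 10.3 in lovastatin cells, 12.3, 12.7 and 12.3 in CPT-11 cells and 11.1, 11.2 and 9.97 in untreated cells. The CPT-11 libraries of EME1 lay close together, replicate 3 included. EME1 was higher in CPT-11 than in untreated cells (0.19 ± 0.06, 0.038) and lower in SHP2-silenced than in CPT-11 cells (-0.19 ± 0.06, 0.034). GEN1 was at 4.09, 4.25 and 3.73 FPKM in SHP2-silenced cells, against 6.41, 6.78 and 4.52 in CPT-11 cells, -0.44 ± 0.13 (0.032). SLX4 was at 2.97, 2.73 and 2.37 FPKM in SHP2-silenced cells, against 3.41, 3.58 and 3.38 in untreated cells, -0.28 ± 0.07 (0.012). MUS81, the catalytic partner of EME1, passed no threshold with all libraries. It was at 3.91 and 3.66 FPKM in CPT-11 replicates 1 and 2 but 5.47 in replicate 3, and without that library was lower in CPT-11 than in untreated cells (-0.32 ± 0.10, 0.043). POLQ, the polymerase of the alternative end-joining route, ranged from 4.59 to 7.47 FPKM and passed no threshold with all libraries.

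With all libraries, 21 of 34 members passed the threshold in at least 1 of the 6 comparisons, 41 calls in all. The other 13 passed none, and 51.0% of all tested genes passed it in at least 1. Of the calls, 12 were kept under every alternative run. Of these, 8 were BARD1, BRCA1, FANCA, FANCC, FANCD2, NBN, RBBP8 and XRCC2, lower in lovastatin than in untreated cells. Another 3 were FANCA, NBN and RBBP8, lower in SHP2-silenced than in untreated cells, and 1 was RBBP8, lower in SHP2-silenced than in CPT-11 cells. By group means, 5 members were highest in SHP2-silenced cells, 1 in lovastatin, 16 in CPT-11 and 12 in untreated cells. Without CPT-11 replicate 3 these counts were 5, 1, 19 and 9 in the same order. The lowest mean was in SHP2-silenced cells for 10, in lovastatin cells for 16, in CPT-11 cells for 3 and in untreated cells for 5, and without that library for 9, 16, 6 and 3. Libraries did not overlap in 20 members between SHP2-silenced and untreated cells, beside 54.1% of all tested genes, and in 19 between lovastatin and untreated cells, beside 47.3%. Between SHP2-silenced and lovastatin cells they did not overlap in 13, beside 35.5%. Between SHP2-silenced and CPT-11 cells the count was 12, beside 35.8%, or 28 without CPT-11 replicate 3, beside 64.4%. Between lovastatin and CPT-11 cells it was 16, beside 17.1%, or 27 without that library, beside 57.2%. Between CPT-11 and untreated cells it was 9, beside 29.4%, or 21 without that library, beside 50.2%.

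GC content and genomic span moved with the changes, so their values are set beside them. Over the 34 members, Spearman's rho between GC content and the change was 0.49 in SHP2-silenced and 0.50 in lovastatin minus untreated cells, and 0.68 and 0.61 in the same groups minus CPT-11 cells. Over the 17793 tested genes with a GC value it was 0.48, 0.36, 0.62 and 0.57 in the same order, and for CPT-11 minus untreated cells it was -0.20 in members and -0.01 over all. Without CPT-11 replicate 3 the members' rho was 0.748 in SHP2-silenced and 0.725 in lovastatin minus CPT-11 cells, and -0.47 in CPT-11 minus untreated cells. Between genomic span and the change, the members' rho was -0.49 in SHP2-silenced and -0.65 in lovastatin minus untreated cells. In the same groups minus CPT-11 cells it was -0.37 and -0.52. Over all tested genes it was -0.23, -0.20, -0.28 and -0.31 in the same order. These are descriptions across genes, which share libraries. For 9 members at or above 50% GC, the medians against the untreated mean were 0.17 in the third CPT-11 library, against -0.12 and -0.08 in the other two. For the 25 below 50% they were -0.17 in that library, against 0.12 and 0.16.

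**Figure D4:**
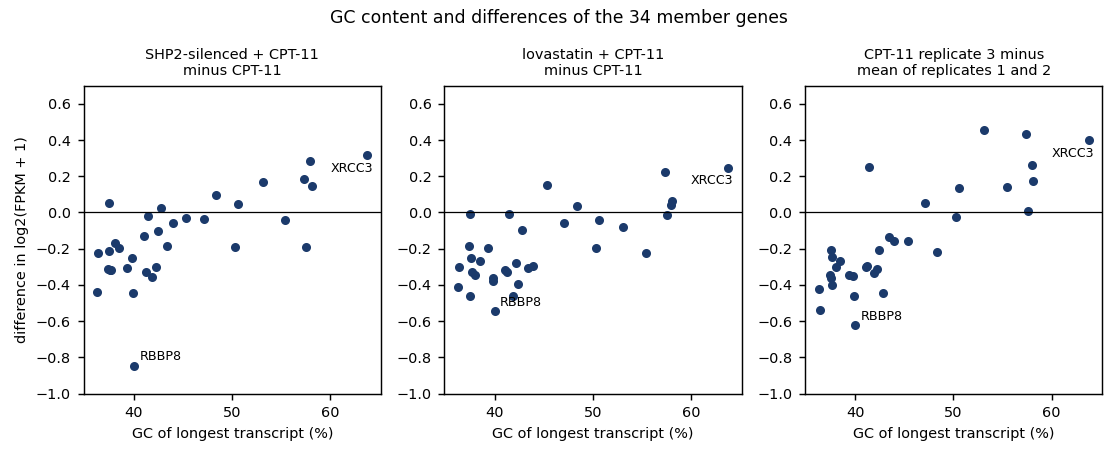
Each point is 1 of the 34 members, with the GC content of its longest transcript in percent on the horizontal axis and a difference in log2(FPKM + 1) on the vertical axis, for SHP2-silenced minus CPT-11, lovastatin minus CPT-11, and CPT-11 replicate 3 minus the mean of CPT-11 replicates 1 and 2. The points run upwards in all 3 panels (rho 0.68, 0.61 and 0.79), with RBBP8 lowest and XRCC3 at the right.

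After a correction of each library for GC content and gene length, chosen after the data were seen, 5 of 10 falls against untreated cells stayed in SHP2-silenced cells and 9 of 10 in lovastatin cells. In lovastatin minus untreated cells 9 members were lower, the earlier 10 without BRIP1, and 2 higher, MRE11 and RAD51C, where 34.9% of all genes were called in either direction, and the members' median was -0.05. In SHP2-silenced minus untreated cells RBBP8 (-0.72 ± 0.09, adjusted p = 9.4e-05), NBN, FANCA, FANCC and SLX4 remained lower, and EXO1, MRE11 (0.40 ± 0.06, 5.5e-04), FANCI, RAD51C, POLQ and BRIP1 were higher, beside 40.1% of all genes. BRCA1, BARD1, BRCA2, XRCC2, BLM and FANCE lost their calls there. SHP2-silenced minus CPT-11 cells kept RBBP8 and EME1 and gained SLX4, all lower, beside 1499 of 17793 genes lower. Lovastatin minus CPT-11 cells gained 8 lower members beside 1.55% of all genes: EXO1, FANCA, BRIP1, BRCA1, FANCD2, FANCI, RBBP8 and EME1. CPT-11 minus untreated cells kept all 7 calls and added NBN and BARD1, lower. The 5 higher and 4 lower members there stood beside 2171 and 2373 of 17793 genes. SHP2-silenced minus lovastatin cells had 7 higher members, EXO1, FANCD2, BRIP1, BARD1, FANCI, POLQ and FANCA, beside 949 of 17793 genes higher. No member was lower there (0 of 34), beside 1258 genes. Without CPT-11 replicate 3, the correction kept 6 of 18 lower calls in SHP2-silenced minus CPT-11 cells: BLM, BRCA2, EME1, FANCL, GEN1 and RBBP8. Of the 4 higher calls RAD54L stayed, where 2399 and 3011 of 17793 genes were lower and higher. In lovastatin minus CPT-11 cells 14 of 22 lower and 0 of 2 higher calls stayed, beside 1161 and 1808 genes. CPT-11 minus untreated cells kept all 8 higher and 3 lower calls, beside 2169 genes higher and 2685 lower. After the correction the members' rho with GC content was 0.14 in lovastatin and -0.05 in SHP2-silenced minus untreated cells. With genomic span it was -0.40 and -0.10. The parts of GC content and genomic span in the uncorrected changes were not tested.

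**Figure D5:**
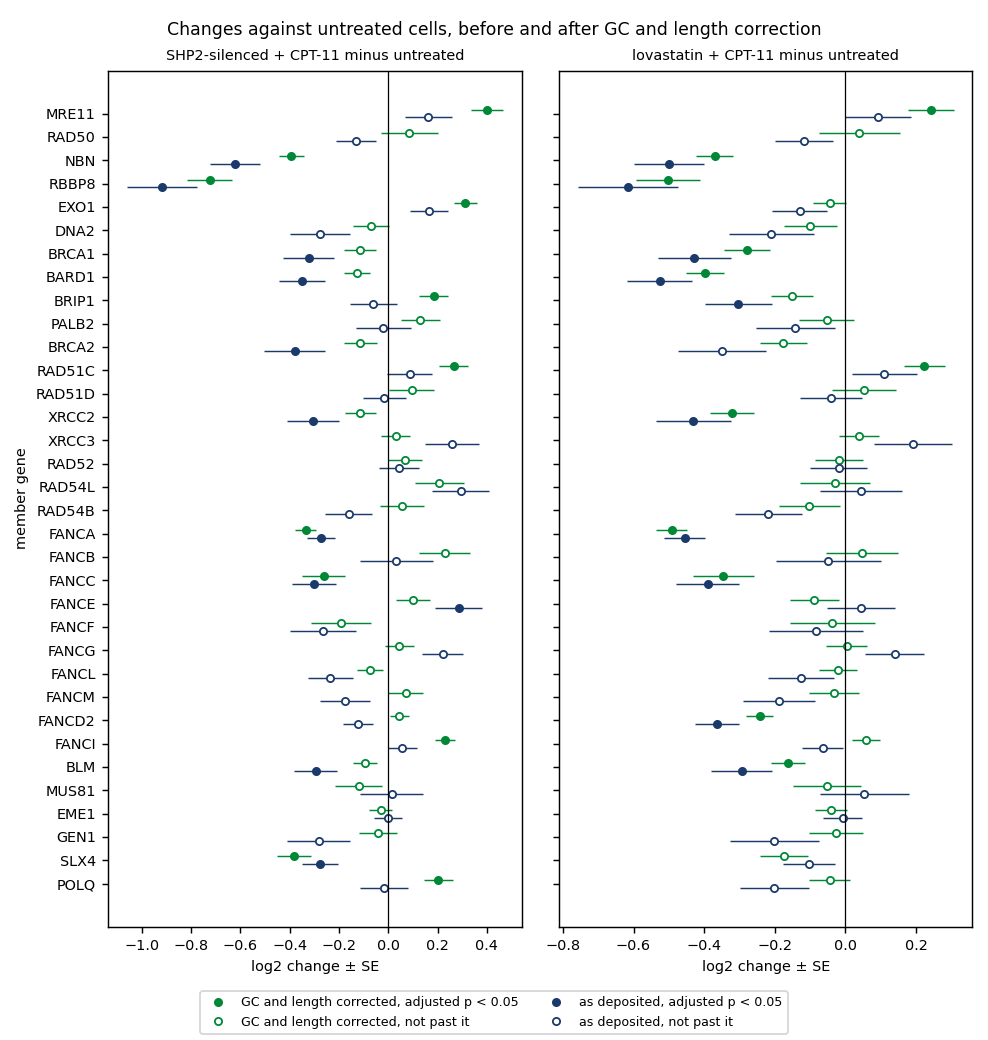
Log2 change with its standard error of each member in SHP2-silenced minus untreated and lovastatin minus untreated cells, as deposited (blue) and after GC and length correction (green); filled points have an adjusted p under 0.05. RBBP8, NBN, FANCA and FANCC are filled and left of 0 in both panels and both settings.

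Cell-cycle markers changed beside these genes. Summed FPKM of 14 S-phase genes was 460.3 to 489.5 in SHP2-silenced, 406.2 to 420.1 in lovastatin, 458.9 to 475.5 in CPT-11 and 549.5 to 561.6 in untreated libraries. Summed FPKM of 14 G2 and mitosis genes was 392 to 433.4 in SHP2-silenced, 391.5 to 405.5 in lovastatin, 447.5 to 517.8 in CPT-11 and 701.1 to 720.0 in untreated libraries. Both sums were thus lower in every treated library than in any untreated one. Against untreated cells, 7, 9 and 7 of the 14 S-phase genes were lower and 1, 1 and 3 higher in SHP2-silenced, lovastatin and CPT-11 cells in turn. Of the 14 G2 and mitosis genes 12, 12 and 10 were lower and 0, 0 and 1 higher. All-gene shares were 19.5%, 14.3% and 7.70% lower and 18.3%, 14.7% and 8.85% higher. Leaving out CPT-11 replicate 3 left the CPT-11 counts lower at 7 and 10, beside 12.9%. The counts higher were then 4 and 1, beside 11.6%. In SHP2-silenced against lovastatin cells 7 of 14 S-phase genes were higher and 0 lower, beside 2.58% and 4.26% of all tested genes. EXO1 and FANCD2 were higher in the same comparison. The part of the cell-cycle markers in the members' changes was not tested.

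A further 55 genes of the same pathways, of which 52 were tested, are given with the shares of all tested genes. In SHP2-silenced minus untreated cells 9 were higher and 13 lower, beside 18.3% and 19.5% of all tested genes. These calls were led by BABAM2 of the BRCA1-A complex (-0.65 ± 0.09, adjusted p = 2.5e-04), the helicase RECQL (-0.47 ± 0.06, 2.7e-04) and RMI2, a partner of BLM (0.49 ± 0.08, 8.6e-04). In lovastatin minus untreated cells 4 were higher and 12 lower, beside 14.7% and 14.3% of all genes. Leading these were BABAM2 (-0.63 ± 0.09, 3.9e-04), the replication protein A subunit RPA2 (-0.37 ± 0.06, 0.0014) and SPIDR (-0.50 ± 0.08, 0.0014). In CPT-11 minus untreated cells BABAM2 and SPIDR were lower, beside 7.70% of all genes. The endonuclease subunit ERCC1 was higher (0.27 ± 0.08, 0.044), beside 8.85%. Without CPT-11 replicate 3, 3 were higher and 6 lower there, beside 11.6% and 12.9%. In SHP2-silenced minus CPT-11 cells 8 were higher and 8 lower, led by RECQL (-0.60 ± 0.06, 3.4e-04), and without CPT-11 replicate 3 the counts were 12 and 19. In lovastatin minus CPT-11 cells none was called (0 higher and 0 lower by limma, 5 and 19 at an unadjusted p under 0.05). All-gene shares by limma were 0.393% and 0.0720%. Without CPT-11 replicate 3, 8 were higher and 18 lower there, beside 15.9% and 14.3%. USP1, which removes ubiquitin from FANCD2, led these (-0.46 ± 0.07, 0.0014). In SHP2-silenced minus lovastatin cells RMI2 and CENPX were higher and RECQL and ZSWIM7 lower, beside 2.58% and 4.26%. The list's medians lay between -0.14 and 0.04 in these comparisons, those without CPT-11 replicate 3 included.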

How the data were processed

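RNA was sequenced from 12 libraries of HCT-116 cells, 3 in each of 4 groups. Libraries were prepared with the NEBNext Ultra RNA kit, per the labels' protocols. Tools named in the submitters' processing notes, without a role, are DESeq2 1.16.1, featureCounts 1.5.0-p3, HISAT2 2.0.5 and StringTie 1.3.3b, and the build named is hg19. The single table deposited by the authors holds FPKM per gene, a unit read from the values because the header does not name it. Multiplied by gene length, 100% of nonzero values gave whole reads within 0.01 of a read, 14447847 to 16224271 per library. All 58735 Ensembl features had the start and end of GENCODE 29, a GRCh38 annotation, so coordinates are GRCh38.

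The main test was limma 3.58.1 (R 4.3.3) with an intensity trend on log2(FPKM + 1), 2-sided, with a mean per group over all 12 libraries and Benjamini-Hochberg adjustment over all genes tested. Changes on this scale understate those of low genes. Genes entered the test with 15 or more reads in total and 10 or more, after scaling to the median depth, in 3 or more libraries. Calls had an adjusted p under 0.05. The fit was checked on simulated data. Alternatives were scaling to library totals or by TMM, voom on the recovered reads, a pseudocount of 0.1, other filters, only the 2 groups compared, the replicate number as a block and leaving out each library. Correcting each library for GC content and length, by a spline with 4 degrees of freedom, was added after the data were seen. Members past the threshold are given with values in every library or in both groups of the comparison, the 5 changes furthest from 0 are named in each comparison, and genes of the wider list are named by smallest p. The members, gene lists and tests were chosen with earlier results of these data known, so they are no independent support. Counting intervals were not computed for single values, because groups are replicated.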

Additional observations from a re-analysis of the deposited data

How the results depend on the processing

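Counts below are members higher and lower of 34, with the main counts 5 and 2 (CPT-11 minus untreated), 0 and 0 (lovastatin minus CPT-11), 0 and 11 (SHP2-silenced minus CPT-11), 0 and 10 (lovastatin minus untreated), 1 and 10 (SHP2-silenced minus untreated) and 2 and 0 (SHP2-silenced minus lovastatin). No member call changed its sign under any alternative run. Of the 41 calls, TMM scaling, a pseudocount of 0.1 and a filter of 1 CPM kept all 41, and voom kept 39. Library totals kept 26, no filter 19, only the 2 groups compared 24 and the GC and length correction 25. Calls over all genes are set beside the counts. The genes tested were 41400 with no filter, 16318 at 1 CPM, 17793 with GC correction and 18062 in the other runs. In CPT-11 minus untreated cells 3 were higher with no filter, 0 with only the 2 groups and 8 with GC correction without CPT-11 replicate 3. Over all genes 1104, 737 and 2169 were higher in these runs. Lower there were 1 with library totals, 1 with no filter, 0 with only the 2 groups, 4 with GC correction and 5 with it without that library. All-gene counts lower were 1004, 900, 417, 2373 and 2685 in the same order. In lovastatin minus CPT-11 cells 1 was higher with GC correction without replicate 3, beside 1808 of all genes. Lower were 1 with library totals, 5 by voom, 2 at 1 CPM, 8 with GC correction and 14 with it without replicate 3. All-gene counts lower were 19, 40, 29, 116 and 1161 in the same order. In SHP2-silenced minus CPT-11 cells 2 were higher with library totals, 2 by voom and 2 with GC correction without replicate 3. All-gene counts higher were 2364, 2347 and 3011. Lower were 5 with library totals, 1 with no filter, 1 with only the 2 groups, 3 with GC correction and 7 with it without replicate 3. All-gene counts lower were 1639, 1107, 268, 1499 and 2399 in the same order. In lovastatin minus untreated cells GC correction gave 2 higher, beside 3236 of all genes. In SHP2-silenced minus untreated cells the counts higher were 5 with library totals, 3 by voom, 0 with no filter, 3 with only the 2 groups and 6 with GC correction. All-gene counts higher were 4328, 3502, 2484, 3851 and 3651. Lower were 4 with library totals, 6 with no filter and 5 with GC correction. All-gene counts lower were 2570, 2818 and 3480. In SHP2-silenced minus lovastatin cells the counts were 0 higher with no filter, 4 higher and 1 lower with only the 2 groups, and 7 higher with GC correction. Over all genes these counts were 271 higher, 1037 higher and 1401 lower, and 949 higher. Leaving out 1 library gave 0 to 8 higher and 0 to 3 lower in CPT-11 minus untreated cells, 0 to 2 and 0 to 22 in lovastatin minus CPT-11 cells, 0 to 4 and 1 to 18 in SHP2-silenced minus CPT-11 cells, 0 to 0 and 8 to 10 in lovastatin minus untreated cells, 0 to 3 and 5 to 11 in SHP2-silenced minus untreated cells, and 0 to 0 and 0 to 0 in SHP2-silenced minus lovastatin cells. All-gene counts higher were 1111 to 2087, 41 to 2871, 381 to 3897, 1958 to 2405, 2433 to 3163 and 191 to 270 in the same order. All-gene counts lower were 820 to 2333, 0 to 2584, 626 to 3952, 1810 to 2372, 2701 to 3401 and 403 to 481. Scaling to library totals moved the split of calls over all genes to 1910 higher and 1004 lower (1598 and 1391 as deposited) in CPT-11 minus untreated cells, 2364 and 1639 (1807 and 2167) in SHP2-silenced minus CPT-11, 3247 and 1952 (2654 and 2580) in lovastatin minus untreated and 4328 and 2570 (3308 and 3520) in SHP2-silenced minus untreated cells. The cause of these shifts was not tested.

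Replicate numbers did not pair the libraries: deviations from group means correlated at -0.389 to 0.174 over 18 pairs of libraries with the same number and at -0.326 to 0.445 over 36 pairs with different numbers. With the replicate block 25 of 41 calls were kept. Counts that differed from the main ones were 2 higher in CPT-11 minus untreated, 3 lower in SHP2-silenced minus CPT-11, 9 lower in lovastatin minus untreated, 0 higher and 9 lower in SHP2-silenced minus untreated and 0 higher in SHP2-silenced minus lovastatin cells. All-gene counts were 1268, 1347, 2176, 2935 and 3138, and 263 in the same order. With GC correction and the replicate block, 4 were lower in CPT-11 minus untreated, 4 lower in lovastatin minus CPT-11, 3 lower in SHP2-silenced minus CPT-11, 2 higher in lovastatin minus untreated, 6 higher and 5 lower in SHP2-silenced minus untreated and 6 higher in SHP2-silenced minus lovastatin cells. All-gene counts were 2100, 50, 1174, 2930, 3418 and 3312, and 708 in the same order.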
